A study of Mus musculus with 15 samples.

Results

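The BCL-2 family genes decide at the mitochondrion whether a T cell survives or dies, and 10 of them were followed in CD4+ T cells that lacked AMPKα1, the catalytic subunit of the energy sensor AMPK. The 10 genes were chosen by name: the survival genes Bcl2, Bcl2l1 and Mcl1, the effector genes Bax and Bak1, and the BH3-only genes Bcl2l11, Bbc3, Pmaip1, Bid and Bad. All 10 were found among the 55421 genes of the count tables, and all 10 passed the filter on low counts in every comparison. The T cells came from 15 samples. Naive CD4+ T cells of C57BL/6 Prkaa1 fl/fl mice that carried no Cre (WT) or CD4-Cre (KO) were transferred into Rag2-/- recipients, which have no T or B cells of their own. The mice were 6 to 8 weeks old, and after 6 weeks CD4+ T cells were taken by sorting from the spleen and from mesenteric lymph nodes (mLN). The transfer is a model of colitis. In the paper, recipients of WT cells lost weight and had heavy T cell infiltration, whereas recipients of KO cells kept their weight with mild inflammation. The genotype of the cells and the disease of the host therefore cannot be told apart. There were 4 WT spleen, 4 KO spleen, 3 WT mLN and 4 KO mLN samples, since the study excluded WT mLN replicate 3 for quality. WT and KO donors both carried the floxed Prkaa1 alleles, but the WT donors carried no Cre, so an effect of CD4-Cre itself and the loss of AMPKα1 cannot be told apart. CD4-Cre acts in CD4+CD8+ thymocytes, so the gene was lost before the cells matured, and all cells had expanded in lymphopenic hosts.

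BCL-2, BCL-XL (the product of Bcl2l1) and MCL-1 hold back apoptosis by binding the other members. BAX and BAK form pores in the outer mitochondrial membrane, after which cytochrome c leaves and caspases are activated. The BH3-only proteins report stress: BIM (Bcl2l11) and PUMA (Bbc3) are known for deleting T cells deprived of cytokines, NOXA (Pmaip1) binds mainly MCL-1, BID is cut by caspase-8 below death receptors, and BAD is set by phosphorylation. In T cells, interleukin 7 is known to sustain Bcl2, whereas forkhead (FOXO) factors can induce Bcl2l11 and Bbc3, and p53 can induce Bbc3, Pmaip1 and Bax.

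The start regions of 2 BH3-only genes, Bcl2l11 and Bbc3, are shown because they alone among the members searched held the forkhead core TGTTTAC, searched on both strands (reverse complement GTAAACA) in the 250 bases before each RefSeq start (GRCm38.p6). The capitals mark the match, and each stretch runs 5′ to 3′ on the plus strand.
Bcl2l11, chr2:128125788-128125844: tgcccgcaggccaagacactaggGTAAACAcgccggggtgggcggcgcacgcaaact
Bbc3, chr7:16310067-16310127: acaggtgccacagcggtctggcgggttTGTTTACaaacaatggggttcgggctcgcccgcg
The Bcl2l11 match began 227 bases before the start and the Bbc3 match 167 bases before 1 of the RefSeq starts of that gene, inside an intron of its longer transcripts. Of all 32851 promoter windows, 3.17% held the motif, and of the 15 windows of the 9 members searched, 2 did. A match describes letters and not binding.

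The genes that the results turn on lie, in GRCm38 coordinates, on chromosome 1 (Bcl2, ENSMUSG00000057329, chr1:106538178-106714274, minus strand), chromosome 2 (Bcl2l1, ENSMUSG00000007659, chr2:152780668-152831728, minus strand, and Bcl2l11, ENSMUSG00000027381, chr2:128126038-128162547, plus strand), chromosome 7 (Bax, ENSMUSG00000003873, chr7:45461697-45466898, minus strand, and Bbc3, ENSMUSG00000002083, chr7:16308393-16318205, plus strand) and chromosome 17 (Bak1, ENSMUSG00000057789, chr17:27019810-27029009, minus strand). All are protein-coding, and reads were counted over their exons.

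Each sample had between 9363940 and 11283439 reads on genes, and 58.4% to 63.4% of uniquely aligned reads lay on no gene. Per member and sample the raw counts ran from 231 (Bad) to 5960 (Bcl2). Prkaa1 was lower in every KO sample than in every WT sample of its organ (18.5 to 32.4 against 46.7 to 60.7 CPM, the TMM-scaled counts per 1000000 reads on genes). Its KO and WT means were 20.1 and 50.4 CPM in spleen and 28.0 and 54.3 in mLN. With a sample left out, edgeR gave Prkaa1 an adjusted p under 0.05 in 8 of 8 spleen fits. In mLN it did so in 0 of 7 (edgeR adjusted p = 0.0533 to 0.161). All 9 T cell markers were above 10 CPM in every sample. Their summed level was 7445 to 10459 CPM, beside 1.46 to 8.33 for the 5 B cell markers, of which Ms4a1 was at 0 in mLN. Hbb-bs, a haemoglobin gene, reached 1008 CPM in WT spleen replicate 3, 450 in WT spleen replicate 4 and 443 in WT mLN replicate 4, beside 8.03 to 59.4 in the other samples. The neutrophil markers S100a8 and S100a9 summed to 75.8 to 419 CPM in spleen, 44.3 to 59.8 in WT mLN and 15.8 to 37.2 in KO mLN, and the 5 macrophage and monocyte markers to 112 to 323 in spleen and 49.0 to 208 in mLN. The CD8 T cell markers summed to 19.6 to 28.4 CPM in KO mLN, 7.33 to 11.5 in WT mLN and 1.57 to 4.97 in spleen. The dendritic cell markers summed to 15.1 to 18.6 CPM in WT mLN, 24.9 to 38.0 in KO mLN and 17.2 to 25.9 in spleen. The stromal and endothelial markers summed to 93.9 to 108 CPM in WT spleen, 67.0 to 90.3 in KO spleen and 90.6 to 133 in mLN. Nearly all of this was Pecam1, with 88.9 to 104 CPM in WT spleen, 64.8 to 87.3 in KO spleen and 90.3 to 132 in mLN. The other markers of that list were at 2.69 CPM or less in every sample. Over all samples the NK cell markers summed to 3.17 to 12.6 CPM and the 4 erythroid and platelet markers, Hbb-bs among them, to 13.5 to 1451. Calls that were lost without the 3 samples with high Hbb-bs are given as such beside the result. Between KO and WT in mLN this fit is the same as that without WT mLN replicate 4. In spleen it drops WT replicates 3 and 4, and between the organs in WT all 3 samples. A call can therefore also be lost because fewer samples remain.

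Levels were scaled by edgeR's TMM factors over all 15 samples. Per kilobase of merged exons, which allows genes to be compared, Bax had the highest mean in every group, with 74.0 CPM per kb in WT spleen, 93.6 in KO spleen, 90.4 in WT mLN and 109 in KO mLN. In WT spleen the means of Bbc3 (43.2 ± 18.8, SD, n = 4), Pmaip1 (41.6 ± 3.41), Bak1 (41.2 ± 5.58) and Bcl2 (38.3 ± 12.2) followed and lay within their spread of each other. Mcl1 (30.4 ± 5.29 CPM per kb) and Bcl2l1 (21.6) came next in WT spleen. Bad (10.04), Bid (9.50) and Bcl2l11 (7.66) were lowest there, in an order that was the same in WT mLN (12.6, 10.6 and 6.37 CPM per kb) and in both KO groups.

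The place of Bbc3 and Bcl2 differed between groups. Bbc3 was second in WT spleen but among the lower members in KO, behind Bax, Pmaip1, Bak1, Mcl1 and Bcl2, with 21.3 ± 4.88 CPM per kb in KO spleen and 15.1 ± 3.01 in KO mLN (SD, n = 4 each). Bcl2 was second in WT mLN, with 53.4 ± 12.6 CPM per kb (SD, n = 3), and stood below Mcl1 in KO spleen, with 22.2 ± 3.82 (n = 4), beside Bcl2l1 (21.8) and Bbc3. Merged exons include alternative ends, so a gene of which T cells use a short form appears lower than it is.

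**Figure D1:**
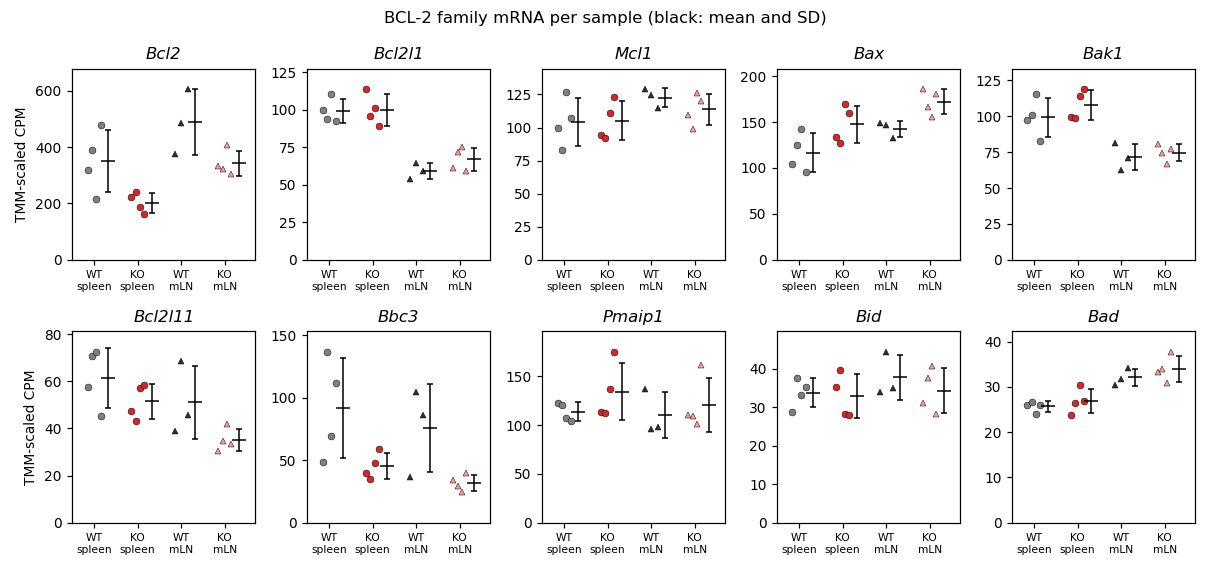
TMM-scaled CPM (counts per 1000000 reads on genes, each y axis from 0) of the 10 genes in every sample, grouped by genotype and organ, with circles for spleen and triangles for mLN, and the mean and SD in black. Bcl2 and Bbc3 sit lower in KO than in WT, with 202.9 against 351 and 45.3 against 91.7 in spleen, while Bcl2l1 and Bak1 separate spleen from mLN in both genotypes.

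The first question was whether the loss of AMPKα1 went with another balance of survival and death genes. Bcl2 and Bbc3, a survival gene and a death gene, both had lower means in KO in both organs, and Bax had higher means. None of the 10 genes passed an adjusted p-value under 0.05 in edgeR's quasi-likelihood test in either organ, where 1.30% of 14254 genes passed in spleen and 0.641% of 14359 in mLN. The unadjusted p-value was under 0.05 for 3 members in spleen and 4 in mLN. Over all genes tested it was so for 2924 of 14254 in spleen and 2253 of 14359 in mLN. With DESeq2, 1 of the 10 passed in each organ, Bcl2 both times, where 5.32% of genes passed in spleen and 4.20% in mLN. The median log2 fold change of the members was 0.012 in spleen and -0.024 in mLN, beside -0.0041 and -0.0038 over all genes tested. In these sorted bulk samples, fewer cells that express a gene and less RNA per cell cannot be told apart. Between KO and WT the summed CD8 T cell, dendritic cell and neutrophil markers did not overlap in mLN. The summed stromal and endothelial markers, nearly all Pecam1, did not overlap in spleen. Not every marker in these lists separated the genotypes. In mLN, Cd8a had 0.31 to 8.47 CPM in WT and 16.5 to 23.2 in KO, but Cd8b1 overlapped (3.05 to 7.02 and 1.49 to 7.01). Itgax, Siglech and S100a8 separated there, whereas Zbtb46, Flt3 and S100a9 overlapped. The part of these markers in the values above was not tested.

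Among the survival genes, Bcl2 had 318, 389, 216 and 480 CPM in the WT spleen samples 1 to 4 and 222, 240, 188 and 161 in the KO spleen samples. All KO samples lay below WT replicates 1, 2 and 4, but WT replicate 3, the sample highest in Hbb-bs, lay below 2 of them. The log2 fold change was -0.79 (SE 0.21, 95% interval -1.26 to -0.32, edgeR adjusted p = 0.088), a KO level of 0.578 times WT. Without WT spleen replicate 3 it was -0.97 (edgeR adjusted p = 0.0223), and with DESeq2 -0.78 (adjusted p = 0.00584). Over the 7 alternatives other than leaving out a single replicate, the adjusted p-value of Bcl2 in spleen ran from 2.56e-12, without the filter on low counts, to 0.16, with the replicate block. The fit without the filter called 1422 of 35256 genes, beside 185 of 14254 in the main fit. The next lowest value of Bcl2 was that of DESeq2. In mLN, Bcl2 had 375, 487 and 606 CPM in WT replicates 1, 2 and 4 and 332, 323, 407 and 306 in KO. Only KO mLN replicate 3 reached into the WT range. The log2 fold change was -0.52 (SE 0.15, interval -0.85 to -0.18, edgeR adjusted p = 0.15), a KO level of 0.699 times WT, and DESeq2 gave -0.51 (adjusted p = 0.0194). Without WT mLN replicate 4, the only mLN sample with high Hbb-bs, it was -0.34 (edgeR adjusted p = 0.468). Over the 7 alternatives the adjusted p-value in mLN ran from 6.42e-05, again without the filter, to 0.468.

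The other survival genes had intervals around 0. Mcl1 had a log2 fold change of 0.014 in spleen (95% interval -0.28 to 0.31) and -0.11 in mLN (-0.34 to 0.12). Bcl2l1 had 0.010 in spleen (-0.19 to 0.21) and 0.18 in mLN (-0.10 to 0.45). These intervals leave room for differences of up to 0.31 log2 in spleen and 0.45 in mLN.

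Of the pore-forming effectors, Bax had 105, 125, 142 and 95.1 CPM in WT spleen and 134, 128, 169 and 160 in KO spleen. The groups overlapped through WT replicate 3. In mLN, Bax had 148, 146 and 133 CPM in the WT samples. The KO mLN samples had 186, 167, 155 and 180, each above all WT samples. Bax was the only member whose groups did not overlap in mLN, where 14.0% of genes tested did not overlap, and none of the members did so in spleen, where 12.0% did not. The log2 fold changes were 0.34 in spleen (SE 0.13, interval 0.04 to 0.63, edgeR adjusted p = 0.194) and 0.27 in mLN (SE 0.093, interval 0.07 to 0.47, adjusted p = 0.203). Bak1 had 0.12 (-0.11 to 0.35) in spleen and 0.062 (-0.19 to 0.31) in mLN. Of the exon length of Bak1, 18.2% lies across Ggnbp1 on the other strand, whose reads may enter its counts.

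Among the BH3-only genes, Bbc3 had the log2 fold change farthest from 0 of all 10 members, and the widest interval, in both organs. It had 48.7, 137, 69.3 and 112 CPM in WT spleen and 40.0, 34.9, 47.6 and 58.8 in KO spleen. The WT values spanned more than the difference between the groups, and WT replicate 1 lay inside the KO range. In mLN, Bbc3 had 36.6, 105 and 86.2 CPM in WT and 33.9, 29.7, 24.9 and 40.0 in KO. Again WT replicate 1 lay among the KO values, and WT replicate 2 was the highest in both organs. The log2 fold change of Bbc3 was -1.02 in spleen (SE 0.29, interval -1.66 to -0.38, edgeR adjusted p = 0.0974) and -1.24 in mLN (SE 0.29, interval -1.89 to -0.59, adjusted p = 0.089), a KO level of 0.494 and 0.423 times WT. Without WT mLN replicate 1 the mLN value was -1.58 (edgeR adjusted p = 0.00888), and without WT mLN replicate 2 it was -0.93 (adjusted p = 0.293). DESeq2 gave adjusted p-values of 0.0653 for Bbc3 in spleen and 0.051 in mLN. Over the 7 alternatives they ran from 2.05e-15 to 0.182 in spleen and from 8.91e-15 to 0.282 in mLN. The lowest value in each organ came from the fit without the filter on low counts, and the next lowest from DESeq2.

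Bcl2l11, the gene of BIM, had 57.8, 70.7, 72.5 and 45.1 CPM in WT spleen and 47.3, 43.2, 57.2 and 58.5 in KO spleen, which overlapped. In mLN it had 38.9, 68.6 and 45.9 CPM in WT and 30.6, 34.8, 41.8 and 33.2 in KO, and WT replicate 1 lay below the highest KO sample. The log2 fold change was -0.26 in spleen (interval -0.60 to 0.08) and -0.55 in mLN (SE 0.20, interval -0.98 to -0.11, edgeR adjusted p = 0.219). Without WT mLN replicate 2 the mLN value was -0.27. Pmaip1 had higher KO means, with log2 fold changes of 0.24 in spleen (-0.06 to 0.53) and 0.13 in mLN (-0.26 to 0.51). Bid had -0.041 (-0.34 to 0.25) and -0.14 (-0.51 to 0.23), and Bad had 0.067 (-0.14 to 0.28) and 0.078 (-0.21 to 0.36) in spleen and mLN. The counts of both are uncertain, since 17.7% of the exon length of Bid lies across Bcl2l13 and 20.5% of that of Bad across Gpr137, each on the other strand.

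**Figure D2:**
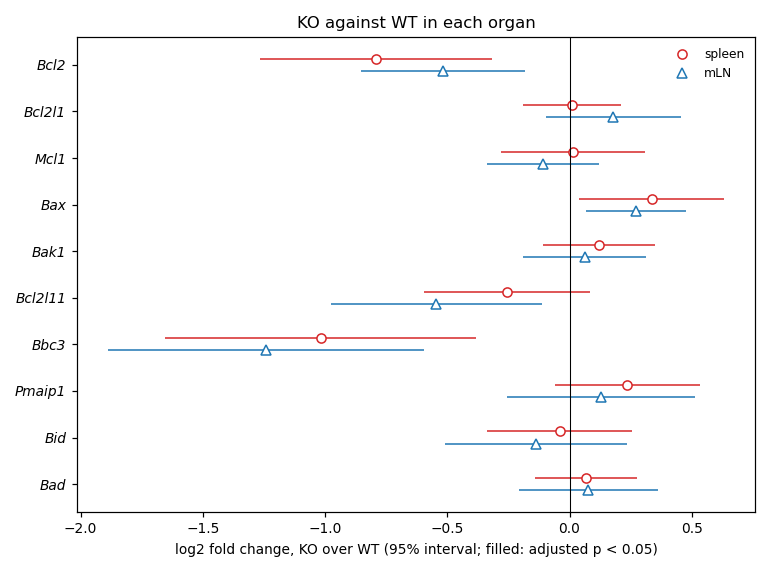
Log2 fold change of KO over WT from edgeR for each member, with circles for spleen, triangles for mLN and lines for the 95% interval; filled symbols would mark an adjusted p under 0.05. All symbols are open, and the intervals of Bcl2, Bbc3 and Bax leave out 0 in both organs, with Bbc3 at -1.02 and -1.24.

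The effect of the genotype did not differ between the organs by a test. In the genotype by organ interaction none of the 10 members passed, 0% of 15438 genes passed in edgeR, and 652 genes had an unadjusted p-value under 0.05, while DESeq2 called 2 genes. The interaction was 0.27 for Bcl2 (SE 0.29, interval -0.35 to 0.90) and -0.22 for Bbc3 (SE 0.46, interval -1.20 to 0.75), and these intervals reach as far from 0 as the effects themselves.

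When the counts of both organs were added for each replicate number that had both, a comparison chosen after seeing the data, Bcl2 was lower in KO (log2 fold change -0.69, SE 0.13, edgeR adjusted p = 0.0294) and Bax was higher (0.36, SE 0.079, adjusted p = 0.0416). These were 2 of 10 members, where 3.30% of 16227 genes passed. Bbc3 had -1.17 (SE 0.28, edgeR adjusted p = 0.0536). DESeq2 called Bcl2, Bax and Bbc3 (adjusted p = 2.88e-05, 0.00292 and 0.0367). With any replicate but WT replicate 1 left out, edgeR no longer called Bcl2 (highest adjusted p = 0.0757), and Bax was not called with any replicate left out (0.0541 to 0.127). Without WT replicate 1, Bcl2 had -0.84 (adjusted p = 0.00927) and Bbc3 -1.50 (adjusted p = 0.00349). The sum takes samples of the same number as 1 mouse, which the labels do not state.

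The members were set beside 12 cytokine receptor genes, some of which were known from earlier results of these data to be lower in KO. In spleen 5 of the 12 were lower in KO by edgeR and in mLN 2, none was called higher, and the median log2 fold change was -0.31 in spleen and -0.19 in mLN. In each organ 5 of the 12 had positive values, led by Il9r, the interleukin 9 receptor gene, with 0.58 in spleen and 0.99 in mLN (edgeR adjusted p = 0.401 and 0.0846), where it had 19.8 to 30.3 CPM in WT and 33.5 to 63.8 in KO. Il7r, the receptor chain for interleukin 7, had log2 fold changes of -1.48 in spleen and -1.60 in mLN, and Il2ra, the α chain of the interleukin 2 receptor, had -1.16 (edgeR adjusted p = 0.0123) and -1.29 (not called, adjusted p = 0.139). Ifngr1, the interferon-γ receptor chain, had -1.01 and -1.12. Il4ra (-0.44) and Il1rl1 (-1.57) were called in spleen only, and the difference of their effects between organs was not called in the interaction test. The difference of Bcl2, -0.79 and -0.52, was smaller than those of Il7r in the same samples. With single samples left out, Ifngr1 stayed called in 8 of 8 spleen fits and Il7r in 7 of 7 mLN fits, whereas Il7r, Il4ra and Il1rl1 were each called in 1 of 8 spleen fits, Il2ra in 7 of 8 and Ifngr1 in 1 of 7 mLN fits. Without the 3 samples highest in Hbb-bs, the calls of Il4ra in spleen and Ifngr1 in mLN were lost.

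Sample by sample, Bcl2 and Il7r had the same order in both WT groups. In WT spleen, replicate 3 was lowest in both (216 and 393 CPM) and replicate 4 highest (480 and 1080). In WT mLN, replicate 1 was lowest (375 and 1165 CPM) and replicate 4 highest (606 and 1454). In KO the orders differed: in mLN, replicate 3 was highest in Bcl2 (407 CPM) and lowest in Il7r (365). In KO spleen, replicate 2 was highest in both (240 and 326 CPM), but replicate 4, lowest in Bcl2, was second highest in Il7r (303). Groups of 3 or 4 samples show an order and no more.

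**Figure D3:**
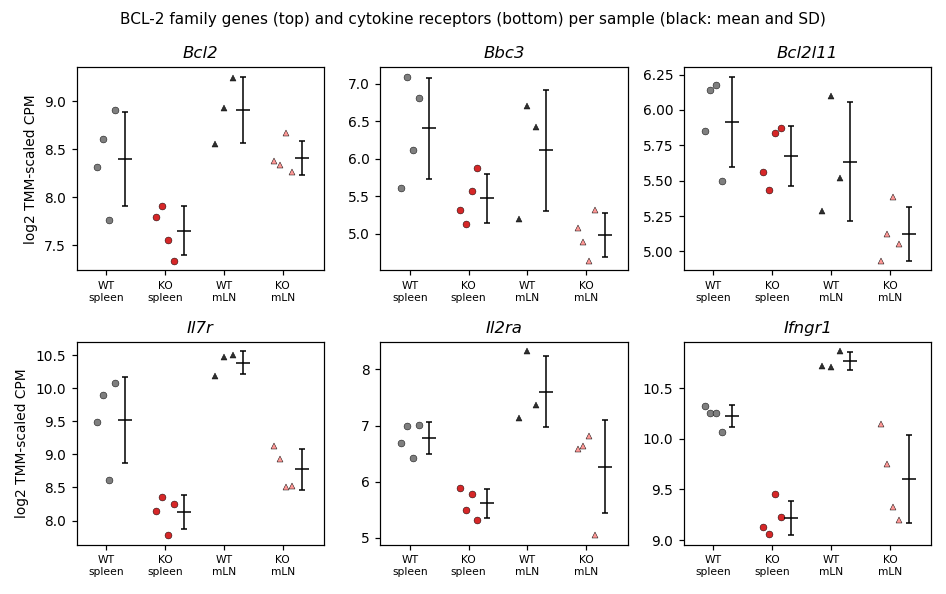
Log2 TMM-scaled CPM of Bcl2, Bbc3 and Bcl2l11 (top) and of Il7r, Il2ra and Ifngr1 (bottom) in every sample by genotype and organ, with the mean and SD in black; the y axes do not start at 0. The 2 genotypes separate fully for the receptors drawn in each organ but not for the BCL-2 family genes drawn, for which WT and KO samples overlap. Among genes not drawn, Bax separated in mLN, and the receptors Il4ra and Il1rl1 overlapped there. Of all genes tested, 12.0% did not overlap in spleen and 14.0% in mLN.

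Ratios within a sample do not depend on how many reads it had, and they are given as a description with no test. The log2 ratio of Bcl2 to Bax was 1.55 ± 0.71 (SD, n = 4) in WT spleen and 0.45 ± 0.44 (n = 4) in KO spleen, and 1.75 ± 0.43 (n = 3) in WT mLN and 0.99 ± 0.28 (n = 4) in KO mLN. In read counts, Bcl2 thus had on average 2.92 times the CPM of Bax in WT spleen and 1.37 times in KO spleen, and the lowest KO spleen sample was at 1.01. In spleen the ranges overlapped, from 0.61 to 2.34 in WT and from 0.016 to 0.91 in KO, and in mLN the lowest WT sample (1.34) lay below the highest KO sample (1.39). The log2 ratio of Bcl2 to Mcl1 was 1.71 ± 0.67 in WT and 0.94 ± 0.45 in KO spleen, and 1.97 ± 0.43 and 1.59 ± 0.16 in mLN. The ratio of Bcl2 to Bcl2l11, the BIM gene, was 2.48 ± 0.75 in WT and 1.97 ± 0.46 in KO spleen, but 3.27 ± 0.45 in WT and 3.29 ± 0.11 in KO mLN, where both genes had lower KO means.

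**Figure D4:**
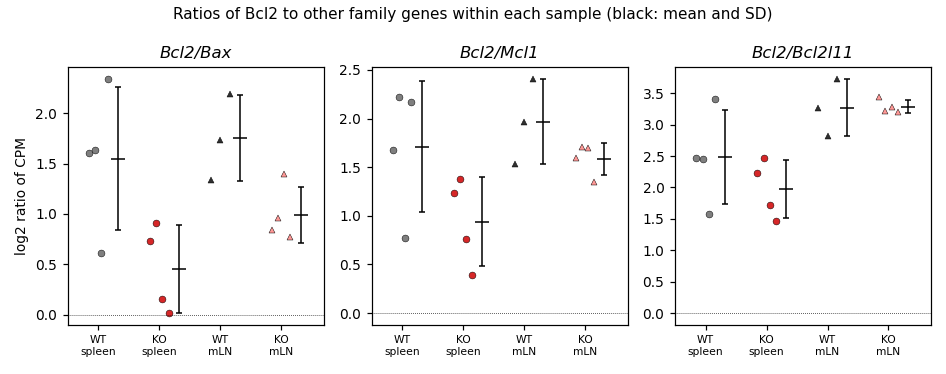
Log2 ratio of the CPM of Bcl2 to that of Bax, Mcl1 and Bcl2l11 within each sample by genotype and organ, with the mean and SD in black and a dotted line at equal CPM. The ratio to Bax has lower means in KO in both organs (0.45 against 1.55 in spleen), and the ratio to Bcl2l11 has nearly equal means in WT and KO mLN (3.27 and 3.29).

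The second question was how the family differed between mLN and spleen. Bcl2l1 and Bak1, a survival gene and an effector, were lower in mLN T cells in both genotypes, and in KO Bcl2 was also higher and Bcl2l11 lower. In WT, 2 of 10 members passed in edgeR, where 20.5% of 14515 genes passed, and in KO 4 of 10, where 25.3% of 14240 passed. In WT, 3 members did not overlap between the organs (31.9% of genes tested did not), and in KO 5 did not (28.8%). Shares of 2 or 3 in 10 lie near those of all genes. The KO shares of 4 and 5 in 10 lie above them, but over only 10 genes, and that excess was not tested.

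Bcl2l1 had 100, 93.8, 110 and 92.6 CPM in WT spleen and 53.7, 64.4 and 59.1 in WT mLN, and 114, 96.0, 101 and 89.1 in KO spleen and 61.4, 71.7, 75.2 and 59.4 in KO mLN. Every spleen sample lay above every mLN sample of both genotypes. The log2 fold change of mLN over spleen was -0.76 in WT (SE 0.10, edgeR adjusted p = 0.00139) and -0.60 in KO (SE 0.11, adjusted p = 0.00193). It was called in all 7 WT and 8 KO fits with a sample left out. Bak1 had 83.1 to 116 CPM in WT spleen and 62.7 to 81.2 in WT mLN, and 98.7 to 119 in KO spleen and 66.8 to 80.9 in KO mLN. Its log2 fold change was -0.48 in WT (SE 0.13, edgeR adjusted p = 0.0266) and -0.55 in KO (SE 0.088, adjusted p = 0.00105). In WT the call was lost without any 1 of WT spleen replicates 1, 2 and 3 and WT mLN replicates 2 and 4 (highest adjusted p = 0.0931) and without the 3 samples highest in Hbb-bs (0.0752), and in KO it held in 8 of 8 fits.

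In KO, Bcl2 was higher in mLN, with every mLN sample (306 to 407 CPM) above every spleen sample (161 to 240), at a log2 fold change of 0.73 (SE 0.13, edgeR adjusted p = 0.0017). In WT the ranges overlapped (375 to 606 against 216 to 480 CPM), and the change was 0.47 (SE 0.25, interval -0.09 to 1.03, edgeR adjusted p = 0.215). Without the 3 samples highest in Hbb-bs it was 0.27 for Bcl2, and that of Mcl1 in WT was 0.46 (edgeR adjusted p = 0.0574) beside 0.23 with them. Bcl2l11 was lower in KO mLN, at -0.57 (SE 0.13, edgeR adjusted p = 0.008), and had -0.27 in WT (interval -0.76 to 0.22). Bad had 0.31 in KO and 0.32 in WT (edgeR adjusted p = 0.0581 and 0.0601), and its groups did not overlap in either genotype. Bbc3 had -0.52 in KO (edgeR adjusted p = 0.0505) and -0.28 in WT. That Bcl2 and Bcl2l11 passed in KO and not in WT does not show a difference between genotypes. The interaction test called neither, and with so few samples that does not show that the genotypes are alike.

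In WT, samples of the 2 organs with the same replicate number deviated together, so the fit with the replicate number as a block is given beside this result. It used the 3 WT pairs and dropped WT spleen replicate 3, and it called 6 of 10 members, where 30.7% of 14336 genes passed. Bcl2 was then higher in WT mLN (0.29, SE 0.064, edgeR adjusted p = 0.00708), as were Bax (0.40, adjusted p = 0.00539) and Mcl1 (0.35, adjusted p = 0.023). Bbc3 was lower (-0.39, SE 0.077, adjusted p = 0.00416), as were Bcl2l1 (-0.70) and Bak1 (-0.39). Within each pair Bbc3 moved alike: WT replicate 1 had 48.7 CPM in spleen and 36.6 in mLN, replicate 2 had 137 and 105, and replicate 4 had 112 and 86.2. In KO the block called 5 of 10 members, where 26.8% of genes passed, with Bbc3 added (-0.51, adjusted p = 0.0177). The summed neutrophil markers and the summed macrophage and monocyte markers were also lower in mLN than in spleen in most samples. Of the latter list, Cd68 was not lower, with medians of 9.10 CPM in WT spleen and 11.9 in WT mLN. In KO it had 14.4 in spleen and 14.9 in mLN, whereas the other markers of that list had lower medians in mLN. The part of these markers in the organ differences was not tested.

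**Figure D5:**
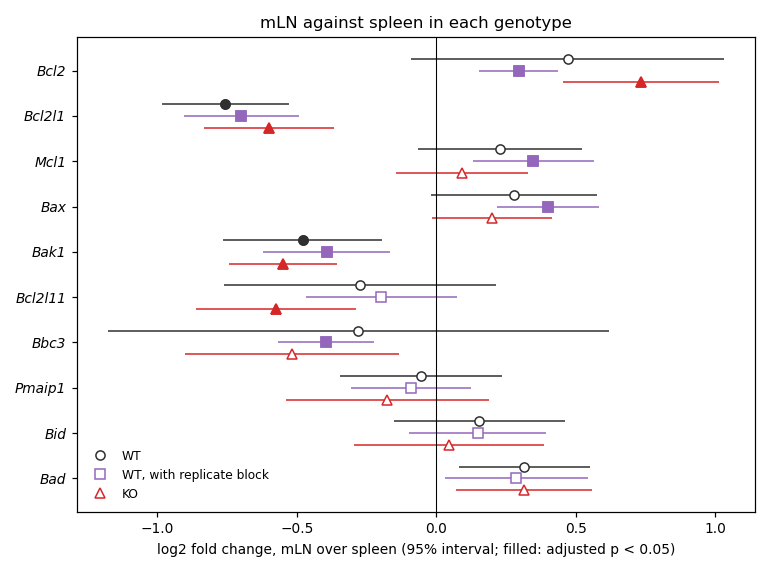
Log2 fold change of mLN over spleen for each member, with circles for WT, squares for WT with the replicate block and triangles for KO, lines for the 95% interval, and filled symbols for an edgeR adjusted p under 0.05. Bcl2l1 and Bak1 are filled on the negative side in every fit, Bcl2 on the positive side in KO and in the WT fit with the block.

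Other genes around the family were counted in lists chosen by function. Of 15 further BCL-2 relatives, 9 were tested in spleen and 10 in mLN, and none was called between KO and WT, with medians of 0.060 and -0.10. Between the organs, Bnip3l, a mitophagy receptor, was higher in mLN in WT (0.49) and KO (0.50). Its relative Bnip3 (1.72) and Bcl2l15 (1.90) were higher in WT mLN, and Bcl2l13 was lower in KO mLN (-0.48). The values of Bnip3 and Bcl2l15 rest on few reads. Bnip3 had 1.03 to 1.53 CPM in WT spleen and 2.27 to 5.67 in WT mLN, and Bcl2l15 had 0.48 to 1.34 and 2.34 to 5.52. In WT 3 of 11 tested relatives passed and in KO 2 of 10, where 20.5% and 25.3% of all genes tested passed. Without the 3 samples highest in Hbb-bs, none of the WT calls of Bnip3, Bnip3l and Bcl2l15 held.

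Of 13 genes of the apoptosome, the caspases and their inhibitors, 1 passed between KO and WT in mLN and none in spleen. That gene was Birc3, an inhibitor of apoptosis (cIAP2), with 123 to 146 CPM in WT mLN and 90.7 to 95.8 in KO mLN. Its log2 fold change was -0.51 (SE 0.093, edgeR adjusted p = 0.0422), and it was called in 1 of 7 fits with a sample left out. The fit without WT mLN replicate 4, the only mLN sample with high Hbb-bs, was among those that did not call it. Between the organs, Birc5 (survivin, which also serves mitosis) was higher in mLN in both genotypes (0.71 in WT, 0.89 in KO). Apaf1, the apoptosome scaffold, was lower in both (-0.85 and -0.58), and Casp9 was lower in WT (-0.50). With a sample left out, Birc5 was called in 5, Apaf1 in 2 and Casp9 in 1 of 7 WT fits, and without the 3 samples highest in Hbb-bs none of the 3 was called in WT, while Birc5 and Apaf1 were called in 8 of 8 KO fits.

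None of the 10 death receptor genes was called between KO and WT. Fadd, the adaptor that joins death receptors to caspase-8, had log2 fold changes of -0.61 in spleen and -0.64 in mLN (edgeR adjusted p = 0.119 and 0.18). Its groups did not overlap in either organ, with 19.33 to 27.03 CPM in WT and 10.13 to 19.29 in KO spleen, and 19.9 to 31.03 in WT and 12.1 to 17.98 in KO mLN. Fas had log2 fold changes of 0.50 in spleen and 0.62 in mLN (edgeR adjusted p = 0.18 and 0.162) and its ligand gene Fasl -0.25 and -0.32. Tnfsf10, the gene of TRAIL, was lower in mLN than in spleen in WT (-0.87) and KO (-0.62). With a sample left out it was called in 1 of 7 WT fits (highest adjusted p = 0.128) and in 8 of 8 KO fits. In KO mLN Tnfrsf1a was lower (-0.53, called in 5 of 8 such fits) and Tradd higher (0.26, in 3 of 8).

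Of 9 transcription factors known to act on the family, Myc was lower in KO spleen (-0.98, SE 0.20, edgeR adjusted p = 0.0453), and none passed in mLN, where Myc had -0.91. Myc was called in 2 of 8 spleen fits with a sample left out, and not without the 3 samples highest in Hbb-bs (adjusted p = 0.103). Foxo1 had 0.11 in spleen and -0.0044 in mLN, and Foxo3 0.37 and 0.57, and neither was called. Between the organs Foxo3 was lower in mLN in both genotypes (-0.95 in WT, -0.76 in KO), whereas Trp53, the p53 gene (0.66 and 0.62), and Myc (0.92 and 0.98) were higher. Foxo3 and Trp53 were called in every fit with a sample left out and without the 3 samples highest in Hbb-bs, whereas Myc in WT was called in 4 of 7 and not without the 3 samples.

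Of 9 genes known as p53 targets 8 were tested, and all 8 had positive log2 fold changes in both organs, with medians of 0.45 in spleen and 0.48 in mLN beside medians of -0.0041 and -0.0038 over all genes. Trp53inp1 passed in spleen (0.45, SE 0.086, edgeR adjusted p = 0.0444) and was called in 1 of 8 fits with a sample left out and not without the 3 samples highest in Hbb-bs. The others did not pass, among them Cdkn1a, the cell cycle inhibitor p21 (1.14 and 0.97), and Phlda3 (1.06 and 1.36). Bax, itself such a target, had 0.34 and 0.27 and Pmaip1 0.24 and 0.13, but Bbc3 had -1.02 and -1.24.

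Of 7 STAT feedback genes and Pim kinases, which respond to cytokines, Pim1 was lower in KO spleen (-0.67, SE 0.11, edgeR adjusted p = 0.0378), and was called in 1 of 8 fits with a sample left out. In mLN Pim1 had -0.87 (adjusted p = 0.0575). The medians were -0.34 in spleen and -0.49 in mLN. Between the organs Pim3 was lower in mLN in WT (-0.44) and KO (-0.56), and in KO Pim1 was lower (-0.52) and Socs1 higher (0.60). With a sample left out, Pim3 was called in 4 of 7 WT and 5 of 8 KO fits, Pim1 in 5 of 8 and Socs1 in 8 of 8, and Pim3 in WT was not called without the 3 samples highest in Hbb-bs.

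Of 12 immediate early and heat shock genes, which respond to stress and cell handling, Fos (1.88), Fosb (2.08) and Hspa1a (6.18) were higher in KO spleen, and Junb (-0.87) and Ier2 (-0.50) were lower in KO mLN. With a sample left out, Fos was called in 7 of 8 fits, Fosb in 3 of 8 and Hspa1a in 1 of 8 in spleen, and Junb in 3 of 7 and Ier2 in 0 of 7 in mLN. Without the 3 samples highest in Hbb-bs, Hspa1a and Ier2 were not called. Hspa1a had 2.89 to 56.7 CPM in KO spleen and 0.0974 to 0.52 in WT spleen, so its value there rests on very few reads. Within KO, 7 of 11 tested were lower in mLN than in spleen, with the largest changes in Fosb (-3.13) and Fos (-2.72) and the smallest p-values in Junb (-1.04), Egr1 (-1.08) and Jun (-2.08). In WT none of 9 was called. The part of these genes in the values of the BCL-2 family was not tested.

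The genes most like 3 members over the 15 samples, among 15438 genes, are given by Pearson's r of log2 CPM. The samples share genotype and organ groups, so r describes the groups as well as the samples. Bcl2 was most like D630008O14Rik (r = 0.956), Qrfp (0.954) and Frat1 (0.953). D630008O14Rik is an antisense gene that overlaps 6.09% of the exon length of Bcl2 on the other strand, and reads of the 2 cannot be told apart where they overlap. Mcl1 was most like Tgtp1 (r = 0.860), Ndufb2 (0.838) and Calhm6 (0.817), and Bcl2l11 was most like Trpc4ap (0.910), Padi2 (0.892) and Adam9 (0.884).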

How the data were processed

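RNA of sorted CD4+ T cells was made into libraries with a low-input kit that does not mark strand and was sequenced as single-end reads. The authors aligned the reads with STAR 2.6.1a to GRCm38 with GENCODE annotation, and deposited the reads counted per gene by STAR as raw counts, without normalization; their notes also list DESeq2 1.22.2. The strand setting of the counting is not given in the sources used here. Of 61 genes lying at least 95% inside exons of an abundant gene on the other strand, 60 had counts, as counts of a single strand give and counts of both strands would not. Reads of opposite-strand neighbours may therefore enter a gene.

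Symbols came from GENCODE M21, which matched 55240 of 55421 genes. Counts were tested with edgeR 4.0.16 (R 4.3.3) by its filter on low counts, TMM factors and the quasi-likelihood test, with limma 3.58.1 loaded by it, on the samples of each comparison alone. A gene was called at an adjusted p under 0.05 (Benjamini-Hochberg, over all genes tested). The interaction used all 15 samples. Intervals are 95% intervals of the fit. Alternatives were DESeq2 1.42.0, RLE factors, no filter, at least 10 counts in every sample, the replicate number as a block, all 15 samples in 1 fit, and each replicate left out. The sum of both organs and the fits without the 3 samples highest in Hbb-bs were added after seeing the data. The fits were tested on simulated data. Tables were made with Python 3.11.15, pandas 2.3.3 and numpy 2.4.6, and figures with matplotlib 3.10.9.

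The members and all lists were chosen with earlier results of these data known. Named genes are the 10 members, Prkaa1, the receptors called in either organ and, per list, up to 4 genes called between KO and WT and up to 3 between the organs by the smallest p. Foxo1, the KO against WT values of Foxo3, Fadd, Fas, Fasl, Cdkn1a, Phlda3, Il9r and the mLN against spleen values of Fos and Fosb lie outside that rule and were picked once their values were known.

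Replicate numbers were taken from the labels, which do not say that a number marks a mouse. Deviations from group means correlated across genes between same-numbered WT spleen and mLN samples (r = 0.258, 0.243 and 0.291 over 15438 genes), each over the limit of 0.1 taken as pairing. The study describes a single experiment with several mice a group, so p-values measure the spread between mice within that experiment. Reads carry no molecular identifiers.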

Additional observations from a re-analysis of the deposited data

Results flagged for a closer look

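Of 30 groups of 4 samples tested over the 10 members, 1 held a sample far from the others, and chance flags about 1 in 20 such groups. Pmaip1, the gene of NOXA, had 161.4 TMM-scaled CPM in KO mLN replicate 4 and 101 to 110 in the other KO mLN samples, a gap of 0.849 of the range of the group beside a limit of 0.829. Pmaip1 was also highest in replicate 4 in KO spleen (175 CPM). Without KO mLN replicate 4, its log2 fold change of KO over WT in mLN was -0.037, beside 0.13 with it.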

How the results depend on the processing

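The number of genes called between KO and WT in spleen (185) was 784 with DESeq2, 1422 without a filter on low counts, 17 with the replicate block, 85 in 1 fit of all 15 samples, 119 without the 3 samples highest in Hbb-bs, and 12 to 324 with 1 sample left out. In mLN (92) it was 563, 913, 1, 500, 4 and 4 to 117 in the same order. Of the BCL-2 family genes, 1 passed with DESeq2 and 3 without a filter in each organ, and 0 to 1 with a sample left out. Between organs in WT, 2980 genes became 1472 without the 3 samples and 1816 to 2780 with 1 left out, and members 1 without the 3 samples, 6 with the block and 1 to 2 with 1 left out. In KO the ranges were 2631 to 3669 genes and 4 to 5 members. The interaction called 2 genes with DESeq2, 112 without a filter, 3 with the block and 0 with any sample left out. The summed organs gave 1444 with DESeq2 and 65 to 694 genes and 0 to 2 members with 1 left out. The cause of these moves was not tested.

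With 1 sample left out, log2 fold changes of KO over WT changed sign for Bcl2l1 (-0.057 to 0.065), Mcl1 (-0.079 to 0.12) and Bid (-0.15 to 0.031) in spleen, for Bak1 (-0.019 to 0.16), Bid (-0.23 to 0.0035), Pmaip1 (-0.037 to 0.31) and Fosb (-0.65 to 0.17) in mLN, and for Mcl1 (-0.057 to 0.059) and Bid (-0.18 to 0.014) in the summed organs. Between organs they did so for Bbc3 (-0.59 to 0.052) and Pmaip1 (-0.24 to 0.029) in WT and Bid (-0.043 to 0.15) in KO, and in the interaction for Bbc3 (-0.57 to 0.078). None of these were calls. Of the single-gene values under other alternatives, 677 kept direction and side of the threshold, 49 fell out of it, 40 came within it and 0 changed sign.

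The replicate number was a block also between KO and WT, where it marks no stated pairing: same-numbered samples correlated at -0.107, 0.0205, 0.146 and -0.21 in spleen and at 0.00337, 0.000836 and -0.0531 in mLN, and the mLN fit dropped KO mLN replicate 3. In KO the organs correlated at 0.041, 0.17, 0.026 and 0.259, not all over 0.1. The block there gave 3814 genes beside 3602. With 3 or 4 samples a group and a biological coefficient of variation of 15.3% in spleen and 21.6% in mLN, differences as small as those of Mcl1 or Bid were not detectable.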
